A study of Mus musculus with 6 samples.

Results

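The genes described here are 10 genes of the innate alarm system of the liver: the cytokines Tnf, Il1a, Il1b, Il1rn, Il18, Csf1 and Osm, the Toll-like receptors Tlr2 and Tlr4, and the inflammasome sensor Nlrp3. They were chosen by name, as the rows of the count table whose gene symbol was one of these 10, and each of the 10 had 1 row among 43346 genes. Total RNA of whole mouse liver was sequenced; all mice were on the FFC diet, the dietary model of metabolic dysfunction-associated steatohepatitis (MASH) in this study. In 3 libraries (numbers 2, 3 and 2600) the label names a short hairpin RNA (shRNA) that targets S100a11, which encodes an S100 calcium sensor, and in 3 libraries (numbers 28, 30 and 31) a scrambled shRNA. Silencing used an adeno-associated virus 8 (AAV8) construct, a vector that in mouse liver enters mainly hepatocytes, and every animal had the FFC diet and an shRNA, so there was no library without either. The labels give neither the promoter of the hairpin nor strain, age or sex, and do not say that each library is a separate animal, so p-values measure the spread between libraries.

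Toll-like receptors sit on macrophages and other sentinel cells and recognise microbial products, and through the adaptor MyD88 they switch on NF-kB. NF-kB then raises transcription of Tnf, of the interleukin 1 (IL-1) precursors and of Nlrp3. NLRP3 assembles with the adaptor ASC and caspase-1, which cuts the precursors of IL-1 beta and IL-18 into their active forms, so that transcript levels alone do not give the amount of active cytokine. In steatohepatitis these signals are known to pass between Kupffer cells, recruited macrophages, stellate cells and hepatocytes.

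Depth was 53517387 to 69874237 counts per S100a11 shRNA library and 57717111 to 78091845 per scrambled library. The targeted gene S100a11 stood at 16.0, 3.55 and 3.41 CPM (counts scaled to the TMM-adjusted library total) in libraries 2, 3 and 2600, against 15.9, 22.9 and 30.0 CPM in libraries 28, 30 and 31, and was not called, that is, did not reach an adjusted p under 0.05 (edgeR adjusted p = 0.095). Library 2 thus held as much as the lowest scrambled library. It is called the library labelled S100a11 shRNA 2, and directions are those of the labelled groups. Albumin (Alb), the defining hepatocyte transcript, held 21195 to 31083 CPM in S100a11 shRNA libraries and 18116 to 22845 CPM in scrambled ones. The non-coding gene Gm26917 took 3.99% to 10.8% of counts in the S100a11 shRNA group and 3.16% to 4.42% in the scrambled group.

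None of the 10 genes passed the test across all genes, yet 9 of the 10 had a lower fitted level in the S100a11 shRNA group. By edgeR's quasi-likelihood test at an adjusted p under 0.05, 0 of 10 were called, against 14.1% of 19352 tested genes, of which 8.28% were lower and 5.82% higher. All 10 genes passed the filter on low counts. At an unadjusted p under 0.05, 4 of 10 passed, all lower (Tnf, Il1rn, Osm and Tlr4). Over all genes 15.9% passed and were lower, and 29.7% passed in either direction. DESeq2 called 2 of 10 lower (Il1rn and Tnf), against 2132 of 19352 genes lower and 19.4% of genes called in either direction. With limma voom 0 were called at the adjusted threshold. At an unadjusted p under 0.05 limma voom passed 6, against 29.5% of all genes in either direction. Upper-quartile factors gave 2 calls (Osm and Tnf, against 10.2% of genes lower), a filter of at least 1 CPM in 3 libraries gave 1 (Tnf, against 9.02%; Osm was not tested), and a threshold of 0.1 gave 2 (Osm and Tnf, against 12.3%). RLE factors, no filter and the legacy quasi-likelihood gave 0, against 8.16%, 5.48% and 7.69% of genes lower, and limma voom had 8.35% of genes lower. The groups did not overlap in 4 of 10 (Tnf, Csf1, Osm and Tlr4, all lower). Over all genes, 18.1% did not overlap and were lower, and 16.5% did not overlap and were higher. The median log2 fold change of the 10 genes was -0.50, beside 0.04 over all genes tested, and 46.2% of all genes had a negative sign.

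Calls also depended on the scaling and on single libraries. With library totals alone 6 of 10 genes were called lower (Csf1, Il1rn, Nlrp3, Osm, Tlr4 and Tnf), against 20.5% of all genes lower, and the median of all genes was then -0.32. Relative to that median, Csf1 stood at -0.30 with either scaling and Osm at -1.76 with either. Without the library labelled S100a11 shRNA 2, the calls were 4 of 10 (Il1rn, Tlr2, Tlr4 and Tnf), against 12.0% of genes lower, and without library 2600 they were 2 of 10 (Nlrp3 and Osm), against 6.29%. When library 3 was left out, 0 of 10 were called, against 2.96% of genes lower, and likewise without scrambled library 28, 30 or 31, against 5.18%, 2.54% and 3.47%.

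**Figure D1:**
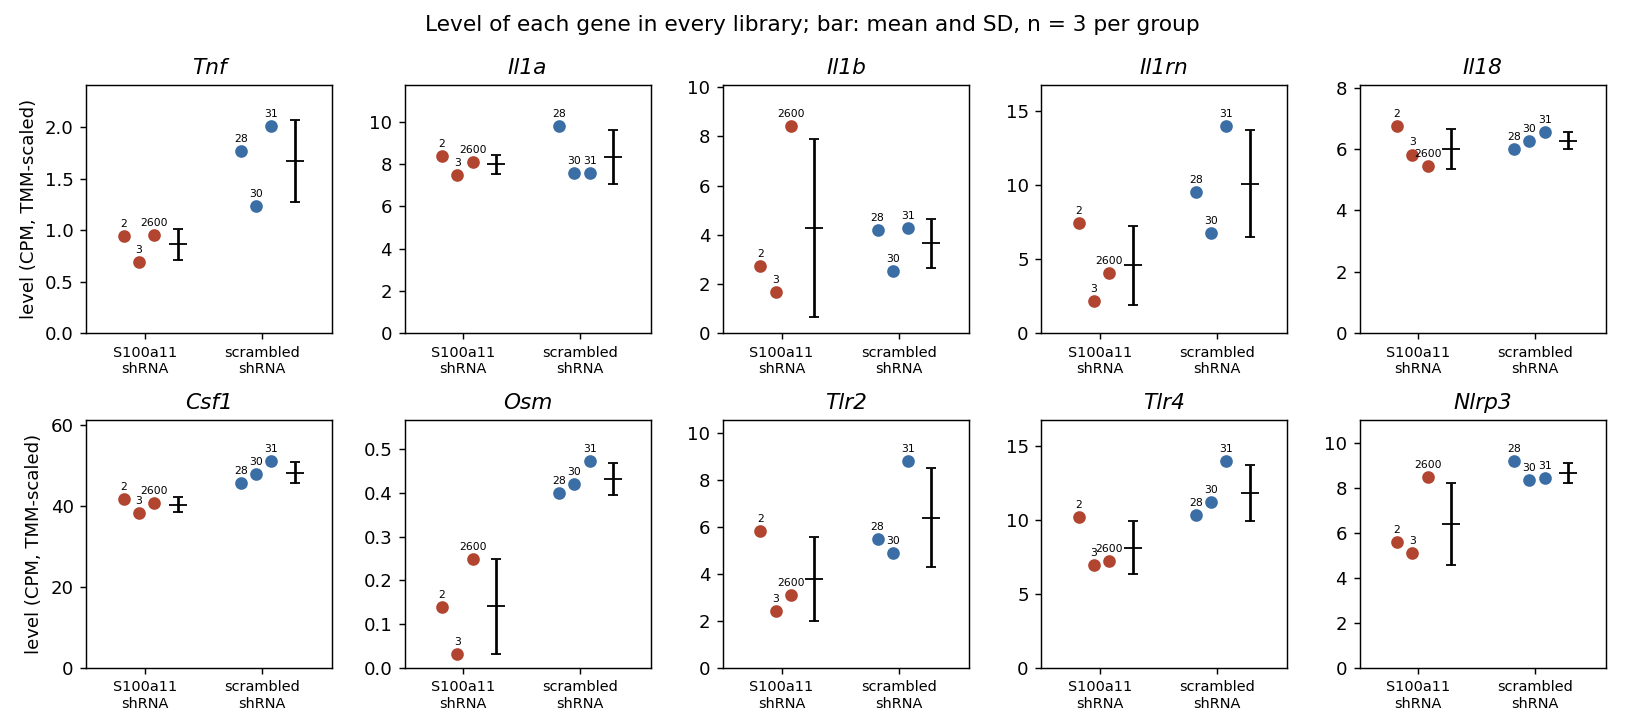
Level of each of the 10 genes in CPM (y axis, from 0) in every library, with S100a11 shRNA libraries (red) left of scrambled libraries (blue), and the mean with SD (n = 3 each) as a bar. The groups do not overlap for Tnf, Csf1, Osm and Tlr4, and Il1b in library 2600, at 8.41 CPM, is the highest of the 6.

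Measured per kilobase of gene length, so that genes can be set side by side, Il18 and Csf1 were the most abundant of the 10 in both groups. In the S100a11 shRNA group Il18 averaged 8.41 ± 0.93 CPM per kilobase and Csf1 7.64 ± 0.36. In the scrambled group Csf1 averaged 9.15 ± 0.51 CPM per kilobase and Il18 8.77 ± 0.38 (SD, n = 3 each), so these neighbours lay within their spread in either group. Il1a came next, with 4.05 ± 0.23 CPM per kilobase in the S100a11 shRNA group and 4.22 ± 0.64 in the scrambled group. Behind it in the S100a11 shRNA group came Il1b (2.24 ± 1.90 CPM per kilobase), Nlrp3 (1.57 ± 0.45), Tlr4 (1.46 ± 0.32), Tlr2 (1.26 ± 0.60) and Il1rn (0.82 ± 0.49). In the scrambled group Tlr4, Nlrp3 and Tlr2 all averaged 2.13 CPM per kilobase, Il1b 1.92 ± 0.52 and Il1rn 1.83 ± 0.65, and neighbours in this order lay within their spread in either group. Tnf, at 0.53 ± 0.093 CPM per kilobase in the S100a11 shRNA group and 1.02 ± 0.24 in the scrambled group, was second to last. Osm, at 0.062 ± 0.048 CPM per kilobase in the S100a11 shRNA group and 0.19 ± 0.016 in the scrambled group, was the least abundant. The length of Il18 in the table is 714 bases against 1031 in the GENCODE M21 annotation, so its place in the order is uncertain.

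Tnf encodes tumour necrosis factor, the membrane-bound cytokine that the protease ADAM17 releases from macrophages. It lies on the minus strand of chromosome 17 (35199381 to 35202007, mm10). Its level was 0.945, 0.687 and 0.955 CPM in libraries 2, 3 and 2600 labelled S100a11 shRNA, against 1.77, 1.24 and 2.01 CPM in scrambled libraries 28, 30 and 31. Every S100a11 shRNA library was thus below every scrambled one, on raw counts of 42 to 61 in S100a11 shRNA and 85 to 174 in scrambled libraries. The fold change was 1.95-fold lower (log2 -0.96 ± 0.29, SE; 95% interval -1.61 to -0.32), with an edgeR adjusted p of 0.055. The adjusted p of Tnf ranged from 0.048 to 0.19 when 1 library was left out, and from 0.012 to 0.067 over the other alternatives.

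Osm, oncostatin M, is a cytokine of the IL-6 family made by activated myeloid cells, and lies on the plus strand of chromosome 11 (4236420 to 4241026). Few reads fell on it: libraries 2, 3 and 2600 held 9, 2 and 11 counts, and libraries 28, 30 and 31 held 27, 29 and 41. All S100a11 shRNA libraries were below all scrambled ones, with means of 0.14 ± 0.11 CPM in S100a11 shRNA and 0.43 ± 0.037 CPM in scrambled libraries (SD, n = 3 each). The fitted fold change was 3.30-fold lower (log2 -1.72 ± 0.51), with an edgeR adjusted p of 0.056. At this depth the 95% interval of the log2 change ran from -2.88 to -0.56. The log2 change of Osm ranged from -2.31 to -1.21 with 1 library left out, and its adjusted p from 0.040 (without library 2600) to 0.15.

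The genes of the IL-1 system, the agonists Il1a and Il1b and the antagonist Il1rn, which occupies the same receptor without signalling, lie on chromosome 2. Il1a (minus strand, 129299610 to 129309972), an alarmin that is active as its precursor, stood at 8.38, 7.48 and 8.12 CPM in libraries 2, 3 and 2600, against 9.79, 7.60 and 7.59 CPM in libraries 28, 30 and 31. The groups overlapped, and the log2 fold change was -0.06 ± 0.17 (95% interval -0.44 to 0.33, edgeR adjusted p = 0.85). The interval includes changes in either direction, so with 3 libraries per group it does not show that the level was unchanged. Its exons share 222 bases with the antisense transcript Gm14023, which held 60 to 103 counts in S100a11 shRNA libraries and 100 to 108 in scrambled ones, against at least 357 for Il1a.

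Il1b (minus strand, 129364570 to 129371139), the agonist that caspase-1 matures, varied widely within the S100a11 shRNA group, with an SD of 1.18 on the log2 scale (prior count of 2) beside 0.43 in the scrambled group. Its highest library there was 5.01 times its lowest, beside 7.82 times for Osm. It stood at 2.73, 1.68 and 8.41 CPM in libraries 2, 3 and 2600, against 4.18, 2.51 and 4.27 CPM in libraries 28, 30 and 31. Library 2600 lay above all scrambled libraries, library 3 below all of them and library 2 among them. Its log2 fold change was 0.20 ± 0.52 (95% interval -0.98 to 1.38, edgeR adjusted p = 0.84) and turned to -0.74 without library 2600 (adjusted p = 0.19). With library totals alone it was -0.19, so the direction of Il1b changed with 1 library and with the scaling.

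Il1rn (plus strand, 24336853 to 24351494) stood at 7.47, 2.16 and 4.07 CPM in libraries 2, 3 and 2600, against 9.56, 6.79 and 14 CPM in libraries 28, 30 and 31. Libraries 3 and 2600 lay below all scrambled libraries and library 2 among them. The fold change was 2.21-fold lower (log2 -1.14 ± 0.42, 95% interval -2.10 to -0.19), with an edgeR adjusted p of 0.11. The log2 change of Il1rn was -1.75 without library 2 (adjusted p = 0.0090), -0.79 without library 3 (adjusted p = 0.23) and -0.84 without scrambled library 31 (adjusted p = 0.29). DESeq2 on all 6 libraries gave an adjusted p of 0.034.

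The ratio of Il1rn to Il1b counts compares antagonist with agonist inside each library and does not depend on scaling. It was 2.73, 1.28 and 0.484 in libraries 2, 3 and 2600, against 2.29, 2.69 and 3.27 in libraries 28, 30 and 31. The ratio was below all scrambled values in 2 of 3 S100a11 shRNA libraries, and library 2600 was the single library with more Il1b than Il1rn counts. The mean log2 ratio was 0.26 ± 1.3 in the S100a11 shRNA group and 1.44 ± 0.26 in the scrambled group (SD, n = 3 each), a difference of -1.19 that an exact two-sided permutation test did not separate (p = 0.3; this design cannot give a p below 0.1). The difference was -0.54 without library 2600 and -1.79 without library 2.

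Il18 encodes the other cytokine precursor cut by caspase-1, which acts on T and natural killer cells, and lies on the plus strand of chromosome 9 (50575273 to 50581837 in the table). Il18 stood at 6.74, 5.82 and 5.46 CPM in libraries 2, 3 and 2600, against 5.99, 6.26 and 6.54 CPM in libraries 28, 30 and 31. The groups overlapped fully, and the log2 fold change was -0.06 ± 0.17 (95% interval -0.44 to 0.32, edgeR adjusted p = 0.85).

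Csf1, the growth factor on which macrophages depend for survival, had the most counts of the 10 genes. It lies on the minus strand of chromosome 3 (107741048 to 107760469). Its level was 41.7, 38.1 and 40.7 CPM in libraries 2, 3 and 2600, against 45.6, 47.9 and 51.0 CPM in libraries 28, 30 and 31. The groups did not overlap, but the difference was small: 1.2-fold lower (log2 -0.26 ± 0.12, 95% interval -0.54 to 0.015, edgeR adjusted p = 0.19). With library totals alone the log2 change was -0.62 with an adjusted p of 0.013.

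Tlr2, the receptor for bacterial lipopeptides, pairs with TLR1 or TLR6 and lies on the minus strand of chromosome 3 (83836272 to 83841767). Tlr2 stood at 5.82, 2.41 and 3.12 CPM in libraries 2, 3 and 2600, against 5.51, 4.88 and 8.82 CPM in libraries 28, 30 and 31. Libraries 3 and 2600 were below all scrambled libraries and library 2 was above 2 of them. The fold change was 1.69-fold lower (log2 -0.76 ± 0.35, 95% interval -1.55 to 0.039, edgeR adjusted p = 0.19). The log2 change of Tlr2 was -1.25 without library 2 (adjusted p = 0.016), -0.50 without library 3 (adjusted p = 0.43) and -0.45 without scrambled library 31 (adjusted p = 0.49).

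Tlr4, the receptor for lipopolysaccharide, lies on the plus strand of chromosome 4 (66827584 to 66930284). Its level was 10.2, 6.92 and 7.25 CPM in libraries 2, 3 and 2600, against 10.4, 11.2 and 14 CPM in libraries 28, 30 and 31. No S100a11 shRNA library reached the lowest scrambled one, although library 2 came close to it. The fold change was 1.46-fold lower (log2 -0.55 ± 0.20, 95% interval -1.01 to -0.085, edgeR adjusted p = 0.11). The log2 change of Tlr4 was -0.77 without library 2 (adjusted p = 0.016), -0.44 without library 3 (adjusted p = 0.28) and -0.41 without scrambled library 31 (adjusted p = 0.32).

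Nlrp3, the sensor that nucleates the inflammasome after potassium efflux or lysosomal damage, lies on the plus strand of chromosome 11 (59541568 to 59566956). Nlrp3 stood at 5.59, 5.10 and 8.46 CPM in libraries 2, 3 and 2600, against 9.18, 8.34 and 8.44 CPM in libraries 28, 30 and 31. Libraries 2 and 3 were low, and library 2600 stood within the scrambled range, as for Il1b the highest of its group. The fold change was 1.36-fold lower (log2 -0.44 ± 0.21, 95% interval -0.93 to 0.039, edgeR adjusted p = 0.20). The log2 change of Nlrp3 was -0.71 without library 2600 (adjusted p = 0.042), -0.31 without library 3 (adjusted p = 0.42) and -0.39 without library 2 (adjusted p = 0.25).

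**Figure D2:**
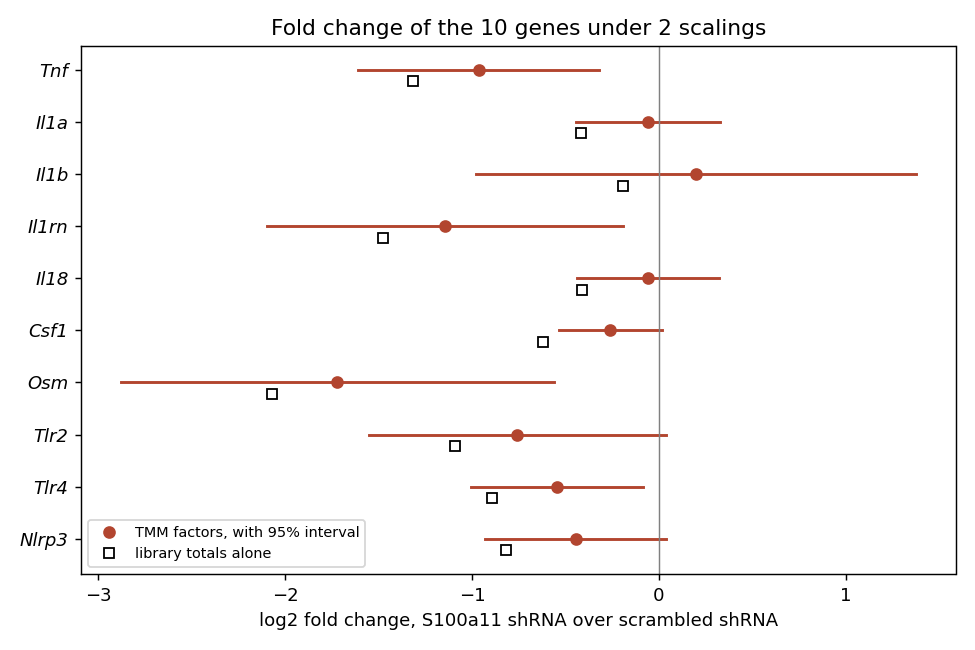
Log2 fold change of each gene, S100a11 shRNA over scrambled shRNA (x axis), with the 95% interval of the fit that used TMM factors (red), and the value with library totals alone (open squares). The interval of Tnf runs from -1.61 to -0.32 and that of Il1b from -0.98 to 1.38, and every square lies left of its red point.

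The promoters of 3 genes are shown because Tnf and Il1b are textbook targets of NF-kB with different values here, and Tlr2 holds matches to its motif. Each window is the 300 bases around a transcription start in RefSeq (GRCm38.p6), on the gene's strand, and capitals mark matches to the NF-kB consensus motif on either strand. The windows are chr3:83841559-83841858 for Tlr2, chr17:35201958-35202257 for Tnf and chr2:129371090-129371389 for Il1b, all on the minus strand.
Tlr2: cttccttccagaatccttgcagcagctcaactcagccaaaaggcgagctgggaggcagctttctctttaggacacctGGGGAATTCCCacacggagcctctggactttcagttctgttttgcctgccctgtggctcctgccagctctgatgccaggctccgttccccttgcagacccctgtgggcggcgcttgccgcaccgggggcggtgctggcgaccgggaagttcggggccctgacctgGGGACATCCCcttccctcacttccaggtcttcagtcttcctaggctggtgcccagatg
Tnf: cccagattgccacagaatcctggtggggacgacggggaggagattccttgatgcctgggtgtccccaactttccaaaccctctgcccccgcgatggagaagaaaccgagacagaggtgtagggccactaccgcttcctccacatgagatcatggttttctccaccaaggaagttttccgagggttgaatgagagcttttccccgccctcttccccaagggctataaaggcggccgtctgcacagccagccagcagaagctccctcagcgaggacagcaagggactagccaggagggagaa
Il1b: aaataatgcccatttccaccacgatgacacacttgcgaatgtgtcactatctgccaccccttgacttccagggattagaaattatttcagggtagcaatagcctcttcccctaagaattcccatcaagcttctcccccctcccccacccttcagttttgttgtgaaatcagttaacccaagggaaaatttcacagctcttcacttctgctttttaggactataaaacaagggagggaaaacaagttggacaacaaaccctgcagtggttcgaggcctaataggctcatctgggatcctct
Tlr2 held matches at 3 positions, 2 of which overlap. The Tnf and Il1b windows held 0 matches. Of the 10 genes, 8 had a promoter in the RefSeq table (Osm and Tlr4 had no entry), with 11 windows in all. The motif was in 3 of the 11 windows (1 each of Tlr2, Csf1 and Nlrp3), and in 8.46% of all 32851 windows. The AP-1 motif TGANTCA occurred in 2 of the 11 windows (1 each of Il1a and Il1rn), against 7.81% of windows, and the PU.1 core GAGGAA in 3 (1 each of Tnf, Il1a and Nlrp3), against 28.3%. These are letter matches on both strands, not sites of binding, and a window without a match says nothing about the factor.

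Beyond Tlr2 and Tlr4, the other Toll-like receptors and their co-receptors held more calls than the 10 genes themselves. Of 16 tested genes 8 fell and 1 rose, against 8.28% and 5.82% of all genes, with a median log2 change of -0.84. Tlr1, the partner of TLR2, fell 2.03-fold (4.99 ± 0.35 CPM in S100a11 shRNA and 10.2 ± 1.46 CPM in scrambled libraries, SD, n = 3 each, edgeR adjusted p = 0.0087). Tlr8, a receptor of the endosome, fell 2.18-fold (6.83 ± 1.33 CPM in S100a11 shRNA and 14.9 ± 2.30 CPM in scrambled libraries, adjusted p = 0.0097). Cd180, a TLR4-related surface protein, fell 2.31-fold (9.90 ± 2.53 CPM in S100a11 shRNA and 22.8 ± 3.02 CPM in scrambled libraries, adjusted p = 0.0094), although its exons share 182 bases with Mast4 on the other strand.

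Cd14, which hands lipopolysaccharide to TLR4, fell 3.37-fold, with 4.04, 1.55 and 4.78 CPM in libraries 2, 3 and 2600 against 12.8, 9.59 and 12.2 CPM in libraries 28, 30 and 31 (edgeR adjusted p = 0.016). Ly96, the other partner of TLR4, is named here for its role and not by its p. It stood at 2.66 ± 0.39 CPM in S100a11 shRNA and 3.68 ± 0.22 CPM in scrambled libraries and was not called (adjusted p = 0.16). The calls of Tlr1, Tlr8, Cd14 and Cd180 held without any one library. Ly86, which binds CD180, and the receptors Tlr6, Tlr7 and Tlr9 also fell, by 2.66-fold, 1.98-fold, 1.78-fold and 1.91-fold, but each lost its call when library 3, 30 or 31 was left out. Ly86, Tlr7 and Tlr9 also lost the call without library 2600, Tlr6 and Tlr7 without library 28, and Tlr6 without library 2. Tlr1 and Tlr6 are close copies, and how the authors split reads between such genes is not given.

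Tlr5, the flagellin receptor, rose 1.84-fold, with 36.9, 59.5 and 41.6 CPM in libraries 2, 3 and 2600 against 22.5, 29.3 and 23.3 CPM in libraries 28, 30 and 31 (edgeR adjusted p = 0.024). Its call ended with library totals alone (adjusted p = 0.12) and without library 3, 28, 30 or 31. In this group of 16, the falls numbered 8 without the library labelled S100a11 shRNA 2, 4 without library 3 and 5 without library 2600, and 6, 4 and 4 without scrambled libraries 28, 30 and 31. In the same fits 12.0%, 2.96% and 6.29% of all genes were lower without library 2, 3 or 2600. Without scrambled library 28, 30 or 31 the shares were 5.18%, 2.54% and 3.47%.

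**Figure D3:**
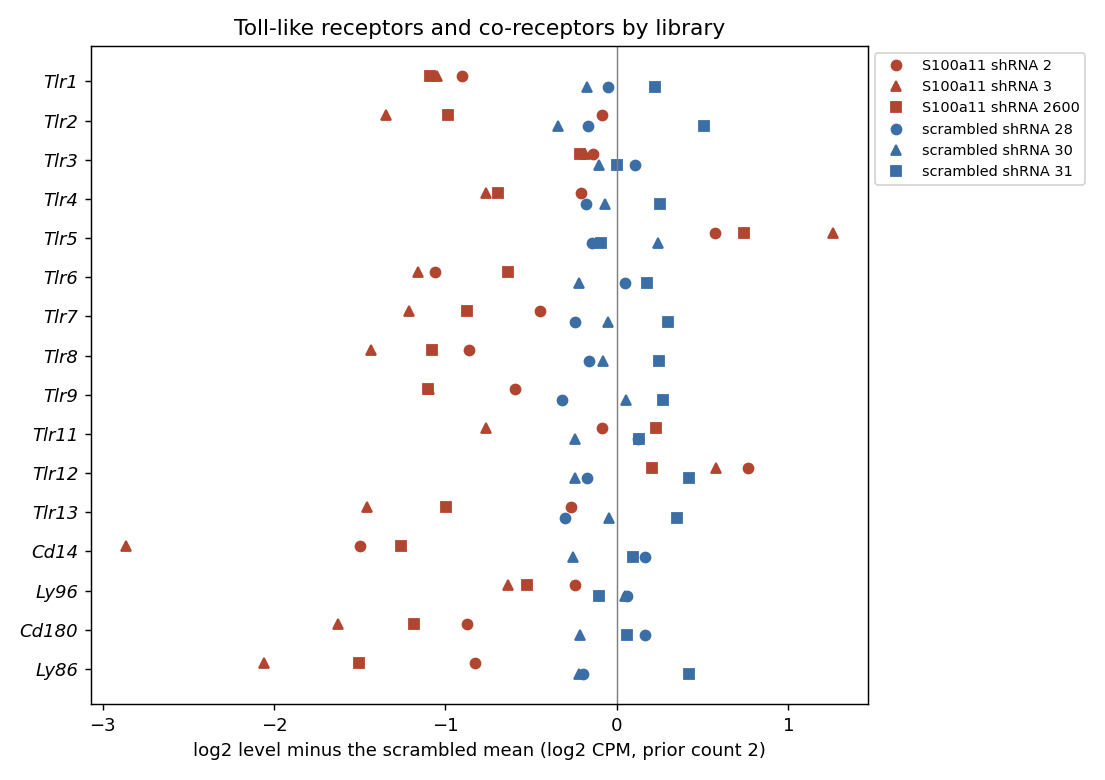
Log2 level of each Toll-like receptor and co-receptor minus its scrambled mean (x axis, log2 CPM with a prior count of 2) in every library, S100a11 shRNA in red above scrambled in blue. Tlr1, Tlr8, Cd14 and Cd180 show the groups apart on the low side, Tlr5 on the high side, and Tlr2 in the library labelled S100a11 shRNA 2 stands among the scrambled values.

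Receptors and partners of the cytokines moved in both directions. The all-gene shares of 5.82% higher and 8.28% lower are the background for each of the following groups. Of 10 tested genes of the oncostatin M and IL-6 family 2 rose and 2 fell. Il6ra, the IL-6 receptor, rose 2.05-fold (121 ± 17.6 CPM in S100a11 shRNA and 59.0 ± 6.99 CPM in scrambled libraries, SD, n = 3 each, edgeR adjusted p = 0.0062), and Lifr, which can pair with gp130 to bind leukaemia inhibitory factor, rose 2.30-fold (454 ± 125 CPM in S100a11 shRNA and 198 ± 22.2 CPM in scrambled libraries, adjusted p = 0.0094, or 0.052 without scrambled library 30). The ligand Clcf1 fell 3.62-fold (5.97 ± 1.69 CPM in S100a11 shRNA and 21.6 ± 3.55 CPM in scrambled libraries, adjusted p = 0.0042), and Lif fell 4.20-fold. The call of Lif, chosen after its values were seen, ended when library 3, 30 or 31 was left out. The receptor subunit Osmr, also chosen after its values were seen, stood at 23.4 ± 6.57 CPM in S100a11 shRNA and 38 ± 6.01 CPM in scrambled libraries and was not called (adjusted p = 0.059).

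In the IL-1 and IL-18 receptor group 1 of 10 tested genes rose and 1 fell, a count near the background of 5.82% higher and 8.28% lower. The median log2 change was -0.62. Falls numbered 4 of 10 with library totals alone (against 20.5% of all genes lower) and 4 of 11 without library 2 (against 12.0%). DESeq2 also gave 4 falls (against 2132 of 19352 genes lower). There were 0 without library 3, 28, 30 or 31, against 2.96%, 5.18%, 2.54% and 3.47% of all genes lower. Il1rap, the accessory chain shared by IL-1 family receptors, rose 1.73-fold (109 ± 13.7 CPM in S100a11 shRNA and 63.4 ± 11 CPM in scrambled libraries, SD, n = 3 each, edgeR adjusted p = 0.018), but its exons share 552 bases with Gm20319 and the call ended with library totals alone (adjusted p = 0.085) and without library 3, 30 or 31. Il18r1, the ligand-binding chain for IL-18, fell 2.42-fold (0.64 ± 0.20 CPM in S100a11 shRNA and 1.59 ± 0.098 CPM in scrambled libraries, adjusted p = 0.022), a call that ended without library 3, 28, 30 or 31. Il18bp, the soluble decoy of IL-18, stood at 17.9 ± 3.46 CPM in S100a11 shRNA and 26.7 ± 3.75 CPM in scrambled libraries and was not called (adjusted p = 0.070).

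The colony-stimulating factor group gave 2 falls among 6 tested genes, both of them signalling chains for other factors than CSF1. Csf2rb2 fell 2.87-fold (edgeR adjusted p = 0.011) and Csf2rb 1.69-fold (adjusted p = 0.030), and since these are near-identical copies the division of reads between them is uncertain. The call of Csf2rb ended without library 3, 2600, 28, 30 or 31. The CSF1 receptor Csf1r, named for its role after its values were seen, stood at 88.2 ± 26.3 CPM in S100a11 shRNA and 130 ± 19.8 CPM in scrambled libraries (SD, n = 3 each) with an adjusted p of 0.14, and Csf2ra, the chain specific to CSF2, had an adjusted p of 0.073. Tumour necrosis factor receptors and adaptors gave 2 falls among 11 genes. Traf1, an adaptor of TNF receptor 2, was 1.85-fold lower and Tnfaip8l2, a brake on immune cells, 1.95-fold lower (adjusted p of 0.017 and 0.034), while Birc3 was not called (adjusted p = 0.17). Neither fall held when library 3, 30 or 31 was left out, and the call of Tnfaip8l2 also ended without library 2600 or 28.

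Other inflammasome parts gave 4 falls and 0 rises among 18 genes. Aim2, a sensor of cytosolic DNA, fell 1.97-fold (4.57 ± 0.31 CPM in S100a11 shRNA and 9.0 ± 0.76 CPM in scrambled libraries, SD, n = 3 each, edgeR adjusted p = 0.0085, or 0.051 without scrambled library 30). Casp4, the caspase that binds cytosolic lipopolysaccharide, fell 1.91-fold (adjusted p = 0.012), and the sensors Nlrp1b and Naip2, which have close copies, fell 1.76-fold and 1.49-fold. Without scrambled library 30 or 31 the calls of Casp4, Nlrp1b and Naip2 ended. The calls of Nlrp1b and Naip2 also ended without library 3 or 28, and that of Naip2 without library 2600. Without scrambled library 30 this group had 0 falls, against 2.54% of all genes lower. Among 17 NF-kB subunits, inhibitors and feedback genes 3 fell and 0 rose, all of them inhibitors. Tnip3, which binds the ubiquitin editor A20, was 4.31-fold lower (0.36 ± 0.18 CPM in S100a11 shRNA and 1.56 ± 0.34 CPM in scrambled libraries, adjusted p = 0.011), Nfkbie 1.71-fold lower and Tnip1 1.57-fold lower, and without scrambled library 30 or 31 only the call of Tnip3 held. The call of Nfkbie also ended without library 3.

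Signalling adaptors and kinases shared by the TLR and IL-1 receptors gave 1 rise and 1 fall among 17 genes, near the background of 5.82% higher and 8.28% lower, with a median log2 change of 0.16. Chuk, the kinase IKK alpha, rose 1.57-fold (edgeR adjusted p = 0.038, and 0.26 with library totals alone), and Tab1 was 1.66-fold lower (adjusted p = 0.047). Both calls ended without library 3, 28, 30 or 31, and that of Chuk also without library 2600. Ticam2, which shares exons with Tmed7, was not called (adjusted p = 0.11). Of 20 other cytokine genes 11 could be tested and 0 were called by edgeR or limma voom. DESeq2 called 2 of them lower, against 2132 of 19352 genes lower. Il15, Il16 and Ltb, first by p, had adjusted p of 0.10, 0.098 and 0.15. Over all 116 tested partner genes 23 fell and 5 rose, beside 8.28% lower and 5.82% higher over all genes, and 8 of these 28 calls held without any one library.

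**Figure D4:**
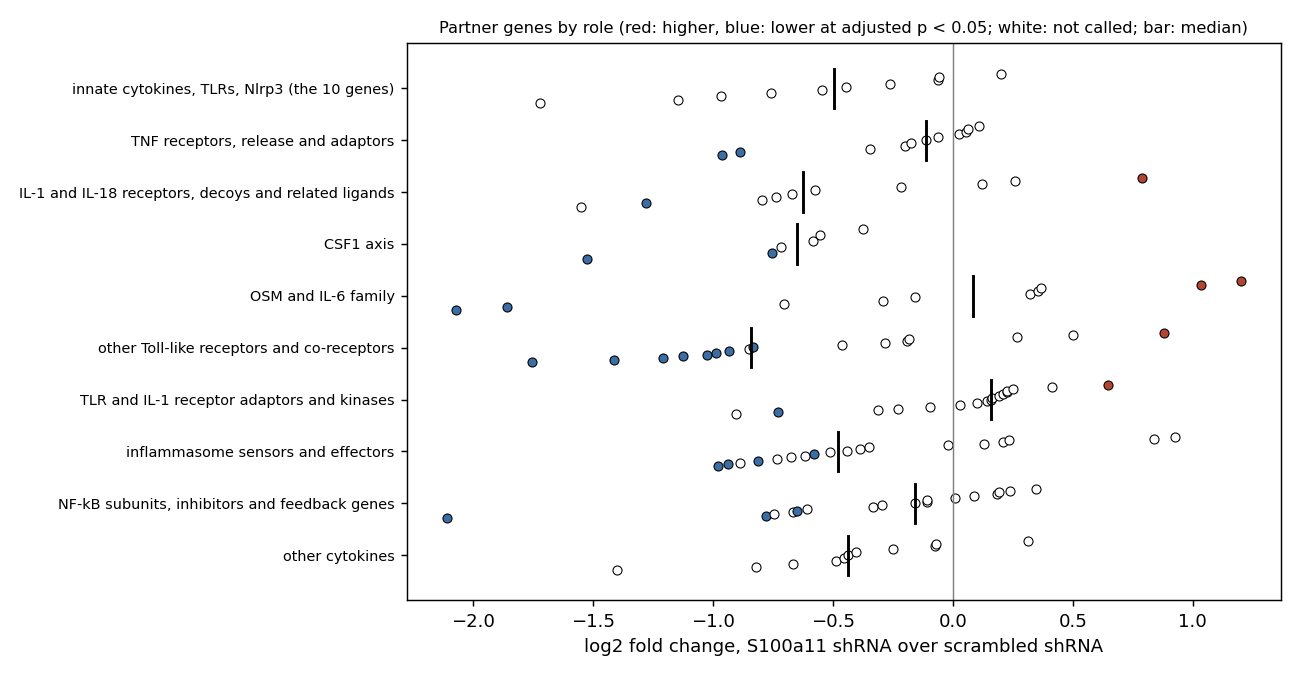
Log2 fold change, S100a11 shRNA over scrambled shRNA (x axis), of the 10 genes and of 9 groups of partner genes; each point is a gene, filled where called at an adjusted p under 0.05, and bars are medians. The group of other Toll-like receptors and co-receptors holds 8 falls and a median of -0.84, and the 10 genes hold no filled point.

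Summed markers of leukocytes, macrophages and monocytes, T and NK cells and B cells were lower in the S100a11 shRNA libraries. Those of Kupffer cells and neutrophils overlapped between the groups. In whole liver fewer cells of a type and less RNA per cell cannot be told apart. The background for each count of markers below is 8.28% of all genes lower and 5.82% higher. Over all genes, 18.1% did not overlap and were lower, and 16.5% did not overlap and were higher. Of 7 pan-leukocyte markers 4 fell and 0 rose, and their summed level was 182 to 291 CPM in S100a11 shRNA libraries against 319 to 454 CPM in scrambled libraries. Of 10 macrophage and monocyte markers 5 fell and 0 rose, with sums of 237 to 388 CPM in S100a11 shRNA and 431 to 599 CPM in scrambled libraries. Kupffer cell markers, of which 1 of 5 rose (Timd4), overlapped between the groups (144 to 383 CPM in S100a11 shRNA and 204 to 361 CPM in scrambled libraries), as did neutrophil markers (0 of 4 tested called; 11.4 to 22 CPM in S100a11 shRNA and 21 to 23.5 CPM in scrambled libraries), of which Ly6g stayed at or under 0.14 CPM in every library and Retnlg at or under 0.062 CPM. T and NK cell markers (1 of 6 fell) summed to 4.08 to 6.66 CPM in S100a11 shRNA and 9.56 to 13 CPM in scrambled libraries. Il7r, the gene that fell, held 1.80 to 2.13 CPM in S100a11 shRNA and 4.53 to 5.90 CPM in scrambled libraries. Cd3d, Cd3e, Cd3g, Nkg7 and Cd8a each overlapped between the groups. B cell markers (0 of 4 called) summed to 3.16 to 4.49 CPM in S100a11 shRNA and 4.65 to 6.70 CPM in scrambled libraries. Cholangiocyte markers (4 of 4 fell) summed to 10.8 to 18.3 CPM in S100a11 shRNA and 42.7 to 49.1 CPM in scrambled libraries, stellate cell markers (4 of 5 fell) to 157 to 424 CPM in S100a11 shRNA and 530 to 830 CPM in scrambled libraries, and hepatocyte markers (2 of 7 rose) to 46047 to 59172 CPM in S100a11 shRNA and 34797 to 43038 CPM in scrambled libraries. Among the stellate cell markers, Col1a1 and Col3a1 gave most of the sum in every library. Lrat overlapped between the groups, at 29.8 to 45.3 CPM in S100a11 shRNA and 25.0 to 40.2 CPM in scrambled libraries. Sinusoidal endothelial markers (1 rose and 1 fell of 4) overlapped, at 388 to 624 CPM in S100a11 shRNA and 387 to 467 CPM in scrambled libraries. The part of these cell types in the levels of the 10 genes was not tested.

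Set against the leukocyte markers of the same library, the 10 genes had a higher summed level in the S100a11 shRNA libraries. The ratio of their summed counts to those of the 7 leukocyte markers was 0.308, 0.386 and 0.364 in libraries 2, 3 and 2600, against 0.288, 0.305 and 0.258 in libraries 28, 30 and 31. Each S100a11 shRNA library was above each scrambled one, library 2 by little, and the group means differed by 0.31 on the log2 scale (exact two-sided permutation p = 0.1, the smallest that 3 against 3 allow), in a sum to which Csf1 gave the most counts. By gene, the mean log2 ratio to leukocyte markers was higher in the S100a11 shRNA group by 0.62 for Il1a, 0.61 for Il18, 0.60 for Il1b, 0.41 for Csf1, 0.20 for Nlrp3 and 0.12 for Tlr4. It was lower for Osm (-1.25), Il1rn (-0.59), Tnf (-0.26) and Tlr2 (-0.14). The groups did not overlap for Il1a and Il18, and overlapped for each of the other genes. For Il1b the log2 ratio was -6.74, -6.76 and -4.82 in libraries 2, 3 and 2600, against -6.41, -6.98 and -6.73 in libraries 28, 30 and 31. Only library 2600 thus lay above the scrambled values of Il1b.

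**Figure D5:**
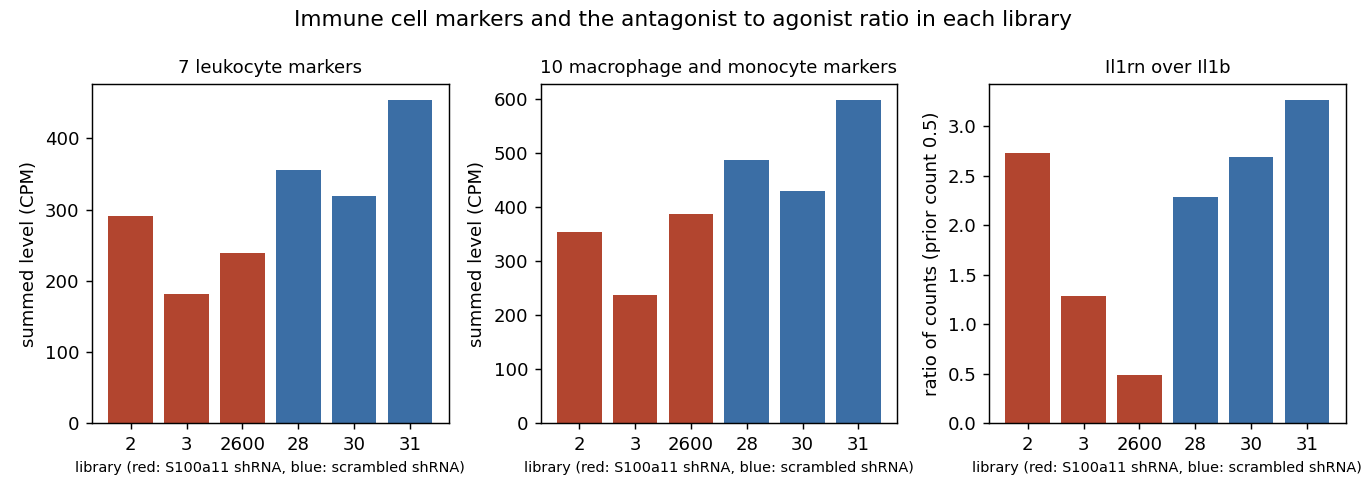
Summed level of 7 leukocyte markers and of 10 macrophage and monocyte markers in CPM, and the ratio of Il1rn to Il1b counts, in each library (y axes from 0; S100a11 shRNA in red, scrambled in blue). Leukocyte sums run from 182 to 291 CPM in red and from 319 to 454 CPM in blue, and the ratio is lowest in library 2600, at 0.484.

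The genes whose profile over the 6 libraries lay closest to each of the 10 were found by the root mean square difference of log2 levels after each gene was centred on its own mean, among 13064 genes. Tlr2 was closest to Cd52, a leukocyte surface antigen, and H2-DMa, which loads peptides on class II molecules (differences of 0.12 and 0.13, beside a median of 0.66 over all candidates). Il1rn was closest to Fcer1g, the signalling chain of Fc receptors, and Pi15 (0.18 and 0.19, median 0.90). Nlrp3 was closest to Ptger2, a prostaglandin E2 receptor, and the kinase Prkcd (0.051 and 0.062, median 0.43).

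For Tnf the closest were Pkm, a glycolytic enzyme, and Cd300c2, a myeloid receptor (0.098 and 0.10, median 0.59), and for Osm Lyz1 and Igf2bp2 (0.20 and 0.22, median 1.11). Il1b had Tmc3 and Btbd11 as its closest (0.21 and 0.23, median 0.77), both of which were also highest in library 2600, at 18.2 and 17.0 CPM. Tlr4 was closest to Rcn2 and Entpd7 (0.037 and 0.039), Csf1 to Phc2 and Hif1a (0.038 and 0.039), Il1a to Rbm3-ps and Tspo (0.048 and 0.049), and Il18 to E2f3 and Asb7 (0.017 and 0.018). For Il1a, Il18 and Csf1 many genes lay near, with medians of 0.29, 0.28 and 0.30. The median for Tlr4 was 0.44.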

How the data were processed

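Raw read counts per Ensembl gene were deposited by the authors for 6 liver libraries, made as stranded total RNA libraries after ribosomal depletion, per the labels' protocols. The submitters' processing notes name the build mm10; the sources used here do not name the aligner, the counting tool or its strand setting. Symbols of other genes came from GENCODE M21 by Ensembl identifier (42462 of 43346 genes).

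The main test was run in edgeR 4.0.16 under R 4.3.3 (filterByExpr, minimum count 10 and minimum total 15; TMM; glmQLFit with legacy = FALSE; glmQLFTest) over 19352 genes, with Benjamini-Hochberg adjustment and a threshold of 0.05. Standard errors were the log2 change over the square root of F. CPM are counts scaled to the TMM-adjusted total of each library. No library pair matched within sampling noise. Alternatives included DESeq2 1.42.0 and limma 3.58.1 voom.

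The members and lists were chosen with earlier results of these data known. Named partners were the 3 first by p in each list; other names are marked where they appear, or complete a count. Of 134 partner entries 130 matched a row and 116 were tested. Intervals cover 95%. Ratios used a prior count of 0.5. RefSeq supplied promoters. Figures used python 3.11.15 and matplotlib 3.10.9.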

Additional observations from a re-analysis of the deposited data

How the results depend on the processing

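Precision is limited by 3 libraries per group and by counts as low as 2 for Osm. Of 139 alternative values of single genes, 117 kept direction and side of the threshold, 17 gained a call and 5 changed sign, none of them called: Il1b (-0.19 with library totals alone, -0.15 with limma voom, -0.74 without library 2600, -0.0043 without scrambled library 30) and Il1a (0.076 without scrambled library 28); with 1 library left out Il1b ranged from -0.74 to 0.58 and Il1a from -0.13 to 0.076. Of the 10 genes, 2 were called at an adjusted p of 0.1, 2 with upper-quartile factors, 6 with library totals alone, 1 with a filter of at least 1 CPM in 3 libraries and 2 with DESeq2, against 0 with the settings reported above, and 0 to 4 with 1 library left out. Without the filter, and with RLE factors, limma voom or the legacy quasi-likelihood (chosen after seeing the data), 0 were called. The count over all genes, 2728 (1126 higher, 1602 lower), had a split of 816 higher and 1980 lower with upper-quartile factors, and became 4206 at 0.1, 4367 with library totals alone (397 higher, 3970 lower) and 724 to 4176 with 1 library left out. Partner calls, 28 in all, became 63 with library totals alone (2 higher, 61 lower, against 5 and 23) and 8 to 35 with 1 library left out. The cause of these shifts was not tested. With a prior count of 2, or 1 library left out, neither ratio changed its direction or side of the threshold, which 3 against 3 cannot pass; the Il1rn to Il1b difference, -1.19, ranged from -1.79 to -0.54 with 1 library left out. No paired analysis was possible because the groups share no replicate numbers.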

Other observations

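Library 2600 stood apart in genes other than Il1b, among them Nlrp12 and Marco, which were chosen after their values were seen. Nlrp12, a sensor of the NLRP family, held 6.46, 27.5 and 102.7 CPM in libraries 2, 3 and 2600, against 20.7, 25.3 and 30.1 CPM in scrambled libraries 28, 30 and 31. Marco, a scavenger receptor of Kupffer cells, held 0.62, 0.88 and 20.6 CPM in libraries 2, 3 and 2600, against 1.13, 0.57 and 0.73 CPM in libraries 28, 30 and 31. Neither difference between the groups was called by edgeR (adjusted p of 0.49 and 0.11), and the log2 change of Nlrp12, 0.84 with all libraries, was -0.61 without library 2600.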
